A study of Mus musculus with 24 samples.

Results

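The 10 genes described here form the core of the circadian clock and its best known output: Arntl (also called Bmal1), Clock, Npas2, Per1, Per2, Per3, Cry1, Cry2, Nr1d1 and Dbp. They were taken by name from the 29020 genes of a total RNA sequencing study of mesenteric arteries, the resistance vessels of the gut, in 24 male mice. Each library came from 1 mouse, named here by its animal ID, and each group held 6 mice. The ieET-1 mice overexpress endothelin-1, a strong vasoconstrictor peptide, once a Cre recombinase driven by the Tie2 promoter is activated by tamoxifen, and the ieCre control mice carry the same inducible Cre. The labels call that promoter endothelium-specific. Both genotypes were 10 to 12 weeks old, received 5 daily doses of tamoxifen under the skin (1 mg/kg each day), and were killed after a further 16 days (short term) or 3 months (long term), so that the long-term mice were also older. The 4 groups are therefore ieET-1 short term, ieCre short term, ieET-1 long term and ieCre long term. No source used here gives the time of day at which the mice were killed.

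The mammalian clock is a loop of transcription and repression that runs in nearly every cell, including those of the artery wall. ARNTL pairs with CLOCK, or with its relative NPAS2, and drives genes that carry E-boxes, among them the Per and Cry genes, Nr1d1 and Dbp. PER and CRY proteins then repress that pair. NR1D1 (REV-ERB alpha) represses Arntl through ROR elements, and DBP acts on D-boxes. In tissues collected around the day, Arntl messenger RNA is known to peak when Dbp messenger RNA is near its trough, Nr1d1 and Dbp peak close together, and Cry1 runs later than the Per genes. In vessels this loop is known to bear on blood pressure rhythm and vascular tone.

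Values are the authors' normalized values, in which reads are divided by an effective library size so that the scale is close to CPM. The libraries held 9635250 to 16181605 reads in genes (median 13017255), and 3 reads correspond to values of 0.177 to 0.461. All 10 clock genes passed the filter on low values (6 or more libraries with a value of 1 or more), and the lowest count behind any of them was 45 reads, for Dbp in mouse 257. Reads of Gm42418, which overlaps ribosomal RNA, took up more than 10% of 4 libraries (mice 9955, 8135, 8136 and 9491), and mouse 9489 had reads on 24399 genes, the most of any library. The labelled tissue showed in its markers: all 5 smooth muscle and all 5 endothelial genes looked at were present in every library, with summed values of 8376 to 19360 and 1128 to 2412. The 5 pancreatic acinar genes were present too, with summed values of 63.6 to 41030, as were 5 adipocyte genes (654 to 1929) and 5 adrenal cortex genes (2.68 to 563). In arteries taken whole, fewer cells of a type and less RNA per cell cannot be told apart.

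The letters by which clock proteins recognise DNA are shown for 5 of the members that carry the results below. RefSeq promoter windows of GRCm38.p6, each running from 250 bases before a transcription start to 50 bases after it, were found for 9 of the 10 genes (13 windows, since some genes have several starts), and Per2 was not matched. Both strands were searched for an E-box (CACGTG), a D-box (TTANGTAA) and TNGGTCA, a loose form of the ROR element, where N is any base. No matches overlapped in these windows. An E-box stood in the first Per1 window (chr11:69098699-69098998, plus strand) and in the Cry1 window (chr10:85185005-85185304, minus strand), and 7.15% of 32851 mouse promoter windows hold one. The Per3 window (chr4:151044616-151044915, minus strand) held 2 D-boxes and 1 TNGGTCA match, and D-boxes stand in 2.32% of windows. The second Arntl window (chr7:113207261-113207560, plus strand) held 3 ROR elements, which stand in 10.96% of windows, and the Cry2 window held 1. The Dbp window (chr7:45704997-45705296, plus strand) held none of these letters, nor did the windows of Nr1d1, Clock and Npas2. Matches are capitals and each sequence is written 5′ to 3′ on the gene's strand. A match describes the letters alone, and binding was not measured.
Per1: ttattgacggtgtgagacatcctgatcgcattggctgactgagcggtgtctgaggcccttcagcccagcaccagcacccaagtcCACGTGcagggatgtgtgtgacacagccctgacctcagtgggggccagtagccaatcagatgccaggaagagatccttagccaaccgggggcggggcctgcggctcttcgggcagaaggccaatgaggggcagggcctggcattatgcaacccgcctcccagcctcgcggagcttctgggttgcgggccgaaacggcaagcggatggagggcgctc
Cry1: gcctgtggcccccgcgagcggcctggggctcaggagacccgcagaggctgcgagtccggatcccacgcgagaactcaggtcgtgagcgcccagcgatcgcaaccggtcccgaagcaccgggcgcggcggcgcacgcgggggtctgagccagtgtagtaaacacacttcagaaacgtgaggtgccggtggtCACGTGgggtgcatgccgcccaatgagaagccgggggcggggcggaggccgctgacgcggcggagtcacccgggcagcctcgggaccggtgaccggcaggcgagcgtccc
Per3: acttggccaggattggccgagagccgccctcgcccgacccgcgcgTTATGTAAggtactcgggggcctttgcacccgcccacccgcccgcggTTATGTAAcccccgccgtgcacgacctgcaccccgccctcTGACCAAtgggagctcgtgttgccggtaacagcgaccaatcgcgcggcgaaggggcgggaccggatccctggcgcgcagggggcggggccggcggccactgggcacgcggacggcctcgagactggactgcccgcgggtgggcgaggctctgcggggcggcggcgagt
Arntl: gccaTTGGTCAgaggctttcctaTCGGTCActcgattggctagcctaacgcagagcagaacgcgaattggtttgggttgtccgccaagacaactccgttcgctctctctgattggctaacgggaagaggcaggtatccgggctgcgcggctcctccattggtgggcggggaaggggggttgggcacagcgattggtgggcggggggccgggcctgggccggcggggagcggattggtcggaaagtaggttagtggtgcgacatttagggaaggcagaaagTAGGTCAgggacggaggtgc
Dbp: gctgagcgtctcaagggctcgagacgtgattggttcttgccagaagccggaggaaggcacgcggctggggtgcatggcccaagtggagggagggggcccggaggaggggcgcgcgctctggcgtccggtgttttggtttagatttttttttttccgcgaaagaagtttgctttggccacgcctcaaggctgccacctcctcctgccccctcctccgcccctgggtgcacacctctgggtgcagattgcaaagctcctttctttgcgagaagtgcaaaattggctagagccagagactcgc

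All 10 genes were expressed in every mouse, and Clock had the highest median. Per kilobase of exon, the normalized level of Clock had a median of 14.5 over the 24 mice (12.4 to 17.8), and its lowest mouse lay above the highest mouse of every other member except Nr1d1. Arntl was second, with a median of 8.50 (5.10 to 10.4). Nr1d1 followed with a median of 7.51 per kilobase (3.11 to 18.5) and Dbp with 4.17 (1.24 to 10.8). Cry1 (3.82), Npas2 (3.38), Per1 (3.36) and Cry2 (3.07) came next, and Per2 (1.87) and Per3 (1.77) were lowest. From Arntl downward every gene's range overlapped that of the next gene in this order.

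The genes also differed in how far mice of 1 group lay apart. On the log2(value + 1) scale, the within-group SD was 0.71 for Dbp, wider than that of 97.8% of the 14544 genes tested, and 0.53 for Per1 (94.9%) and 0.52 for Nr1d1 (94.8%). Per2 (0.44, 90.8%), Per3 (0.39, 86.4%), Npas2 (0.36, 82.5%) and Cry2 (0.35, 81.3%) were also wide. Cry1 (0.28, 63.9%) and Arntl (0.23, 44.1%) lay near the median of all genes (0.24). Clock had an SD of 0.14, wider than that of only 8.6% of genes. Dbp, the repressors other than Cry1 and the activator Npas2 thus had wide spreads, and the activators Arntl and Clock did not. Arntl and Clock also had the highest mean values (62.8 and 201.55, against 11.3 to 23.84 for the others). Spreads were not compared with those of genes of like level.

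**Figure D1:**
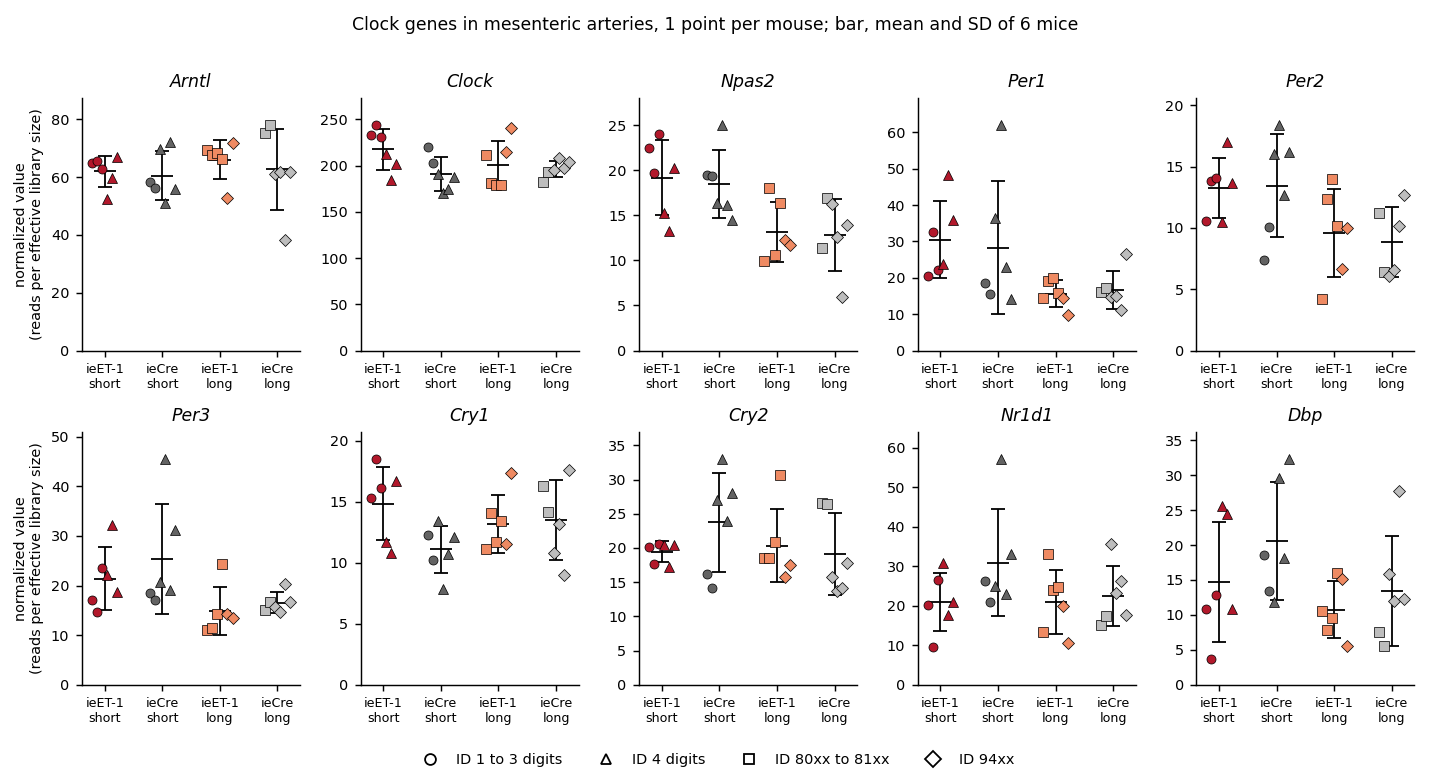
Normalized value of each clock gene (y axis, from 0) in each of the 24 mice, by group (x axis); points are mice, their shape gives the animal ID range, and bars give the mean and SD of 6 mice. Dbp and Nr1d1 spread widely within every group. Per1 spreads more at the short term (SD 10.6 in ieET-1 and 18.3 in ieCre mice) than at the long term (3.69 and 5.19). Mouse 9955 (ieCre short term) is highest for Per1, Per2, Per3, Cry2 and Nr1d1, and Per1 is lower in all 6 ieET-1 long-term mice than in all 6 ieET-1 short-term mice.

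The first question was whether endothelial endothelin-1 overexpression altered the clock genes. None of the 10 genes passed between ieET-1 and ieCre arteries at the short term (limma, Benjamini-Hochberg adjusted p under 0.05 over 14544 genes), where 0.0825% of all genes tested passed, and none passed at the long term, where 0.00688% did. At an unadjusted p under 0.05, 2 of the 10 (Cry1 and Clock) passed at the short term and 0 at the long term, against 9.91% and 2.99% of all genes. No clock gene passed either comparison with edgeR's quasi-likelihood test or DESeq2 on recovered reads. The median log2 difference of the 10 genes was 0.03 at the short term and 0.01 at the long term, beside -0.01 for all genes both times. These misses do not show that the genotypes were alike, and the intervals below give the sizes the data allow.

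Cry1, a repressor of the ARNTL and CLOCK pair, had the smallest p of the members at the short term. Its values ran from 10.8 to 18.5 (median 15.7) in ieET-1 short-term mice, against 7.88 to 13.4 (median 11.4) in ieCre short-term mice. The log2 difference was 0.39 (95% interval 0.06 to 0.71; limma, SE 0.16, adjusted p = 0.48). The groups overlapped, with 2 of the 6 ieET-1 mice (8987 and 8991) below the highest ieCre mouse. Clock, whose protein is the partner of ARNTL in the activating pair, ran from 184.9 to 244 (median 222) in ieET-1 short-term mice and from 170.3 to 220.5 (median 189) in ieCre short-term mice. Its log2 difference was 0.19 (interval 0.01 to 0.37; limma, SE 0.09, adjusted p = 0.496), and the groups overlapped.

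Nr1d1 and Dbp pointed the other way without passing. Nr1d1, which represses Arntl, ran from 9.56 to 30.9 (median 20.6) in ieET-1 short-term mice, against 21 to 57.1 (median 25.7) in ieCre short-term mice, and the log2 difference was -0.53 (interval -1.11 to 0.04; limma, SE 0.28, adjusted p = 0.522). Dbp, the D-box activator, ran from 3.71 to 25.6 (median 11.9) in ieET-1 short-term mice, against 11.8 to 32.3 (median 18.3) in ieCre short-term mice, and the log2 difference was -0.58 (interval -1.35 to 0.19; limma, SE 0.37, adjusted p = 0.561). Both groups overlapped for both genes, and 4 of the 6 ieET-1 mice had less Dbp than 5 of the 6 ieCre mice. Within the animal ID ranges, Dbp means were 9.14 in ieET-1 and 16.0 in ieCre mice of 1 to 3 digits, and 20.3 and 23 in ieET-1 and ieCre mice of 4 digits. The other 6 genes had short-term log2 differences of -0.22 (Cry2) to 0.24 (Per1). Summed adrenal cortex markers stood at 2.68 to 73.0 in ieET-1 short-term mice and 32.7 to 563 in ieCre short-term mice, all 5 of them passing the same test as lower in ieET-1, and their part in these differences was not tested.

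At the long term the 10 differences ran from -0.21 (Dbp, interval -0.98 to 0.56) to 0.10 (Cry2, interval -0.29 to 0.50), each with an adjusted p of 0.999 (limma). Dbp had values of 5.50 to 16.0 (median 10.0) in ieET-1 long-term mice and 5.49 to 27.7 (median 12.1) in ieCre long-term mice. Arntl had 52.7 to 71.7 (median 68.0) in ieET-1 long-term mice and 38.3 to 78.0 (median 61.8) in ieCre long-term mice. For both genes the ieET-1 mice lay inside the range of the ieCre mice. The change of the genotype difference between the times did not pass for any of the 10 genes, nor for any gene (0% called in limma, 0 genes in edgeR's quasi-likelihood test and 6 in DESeq2, with 5.03% of genes at an unadjusted p under 0.05 in limma). Its largest value among the members was 0.40 for Nr1d1 (interval -0.42 to 1.21) and -0.40 for Cry1 (interval -0.85 to 0.06).

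The second question was whether the clock genes differed between long-term and short-term mice of the same genotype. Per1 was the 1 clock gene that passed, and it fell in ieET-1 long-term mice. Its values there were 14.5, 19.1, 19.9, 15.9, 14.4 and 9.66, against 20.4, 32.5, 22.1, 23.8, 48.2 and 35.9 in ieET-1 short-term mice. Every long-term mouse lay below every short-term mouse. The log2 difference was -0.89 (95% interval -1.47 to -0.32; limma, SE 0.28, adjusted p = 0.0477). In that comparison 8.66% of all genes passed, 3.39% as lower, and the groups did not overlap for 3.52%, so 1 of 10 members is near the share of all genes. Per1 encodes a repressor of the loop whose gene is also known to respond quickly to glucocorticoids. In ieCre mice Per1 ran from 11.2 to 26.5 (median 15.5) at the long term and from 14.1 to 62.0 (median 20.9) at the short term, with overlap and a log2 difference of -0.57 (95% interval -1.15 to 0.01 in limma, adjusted p = 0.284). The test of whether the genotypes differed in this change gave -0.32 (interval -1.14 to 0.50; limma, adjusted p = 0.803).

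The Per1 call lay close to the threshold. With edgeR's quasi-likelihood test on recovered reads the log2 difference was -0.98 (adjusted p = 0.0429) and with DESeq2 -0.99 (adjusted p = 0.0149). It missed without the filter on low values (adjusted p = 0.0953), with library weights (0.0617), with the adrenal cortex score, the mean log2(value + 1) of its 5 markers, as a term (0.174) and with the adipocyte score, made likewise, as a term (0.461), all in limma, with differences of -0.89 to -0.78. With 1 of the 24 mice left out in turn, limma kept the call without mouse 256, 10, 8754, 9955, 9958, 9487 or 9491 and lost it without any 1 of the other 17, and the adjusted p ran from 0.018 to 0.106. Adipocyte markers moved with this comparison: their sum was 925 to 1929 in ieET-1 long-term mice and 684 to 1345 in ieET-1 short-term mice, and 3 of 5 passed as higher at the long term in each genotype. The adipocyte score ran from 7.19 to 8.29 in ieET-1 long-term and from 6.26 to 7.30 in ieET-1 short-term mice. Its term can therefore hardly be told apart from time, and the Per1 difference was -0.89 with it as without it. The part of the adipocyte markers in the Per1 difference was not tested. The 5 adventitial fibroblast markers all had lower values at the long term in each genotype, with sums of 4290 to 8549 in ieET-1 long-term and 7172 to 9886 in ieET-1 short-term mice, and 1 of 5 passed in each. That gene was Col1a1, a collagen chain, with log2 differences of -1.69 in ieET-1 and -1.66 in ieCre mice (limma, adjusted p = 0.00124 and 0.0027). Its part was not tested.

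Npas2, Per2 and Per3 had lower values at the long term in both genotypes without passing. Npas2, which can take the place of Clock in the activating pair, ran from 9.89 to 18 (median 12) in ieET-1 long-term mice, against 13.3 to 24 (median 19.9) in ieET-1 short-term mice, and the log2 difference was -0.52 (interval -0.92 to -0.11; limma, adjusted p = 0.099). In ieCre mice Npas2 ran from 5.97 to 16.9 (median 13.2) at the long term and from 14.5 to 25 (median 17.9) at the short term, and the log2 difference was -0.53 (interval -0.94 to -0.13; limma, adjusted p = 0.139). Both pairs of groups overlapped. For Per2 the log2 differences were -0.50 in ieET-1 mice (interval -0.99 to -0.01) and -0.55 in ieCre mice (interval -1.04 to -0.06), and for Per3 they were -0.50 (interval -0.94 to -0.07) and -0.51 (interval -0.94 to -0.07), all with adjusted p of 0.133 to 0.215 (limma). With library weights, Per2 (adjusted p = 0.0224), Per3 (0.0328) and Cry2 (0.0474) passed as lower in ieCre long-term mice, and Npas2 passed in ieET-1 mice (0.0483, limma). The share of all genes passing with weights is not given here. Over the alternatives the count of all genes ran from 0 to 2220 in ieCre mice and from 1 to 1898 in ieET-1 mice, so these calls are not read as a result about the clock genes.

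None of the 10 genes passed in ieCre mice in limma without weights, where 3.3% of all genes did. Arntl and Clock had log2 differences of 0.09 and -0.12 in ieET-1 mice and 0.03 and 0.04 in ieCre mice, each with an interval within -0.30 to 0.35. In ieET-1 mice Nr1d1 (-0.01, interval -0.59 to 0.56) and Cry2 (0.03, interval -0.36 to 0.43) had estimates nearer to 0, with wider intervals. The median over the 10 genes was -0.22 in ieET-1 mice and -0.46 in ieCre mice, beside 0.01 for all genes in each. By direction, 8 of 10 point estimates were below 0 in ieET-1 mice and 7 of 10 in ieCre mice. Dbp had -0.28 (interval -1.06 to 0.49) in ieET-1 mice and -0.65 (interval -1.43 to 0.12) in ieCre mice.

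**Figure D2:**
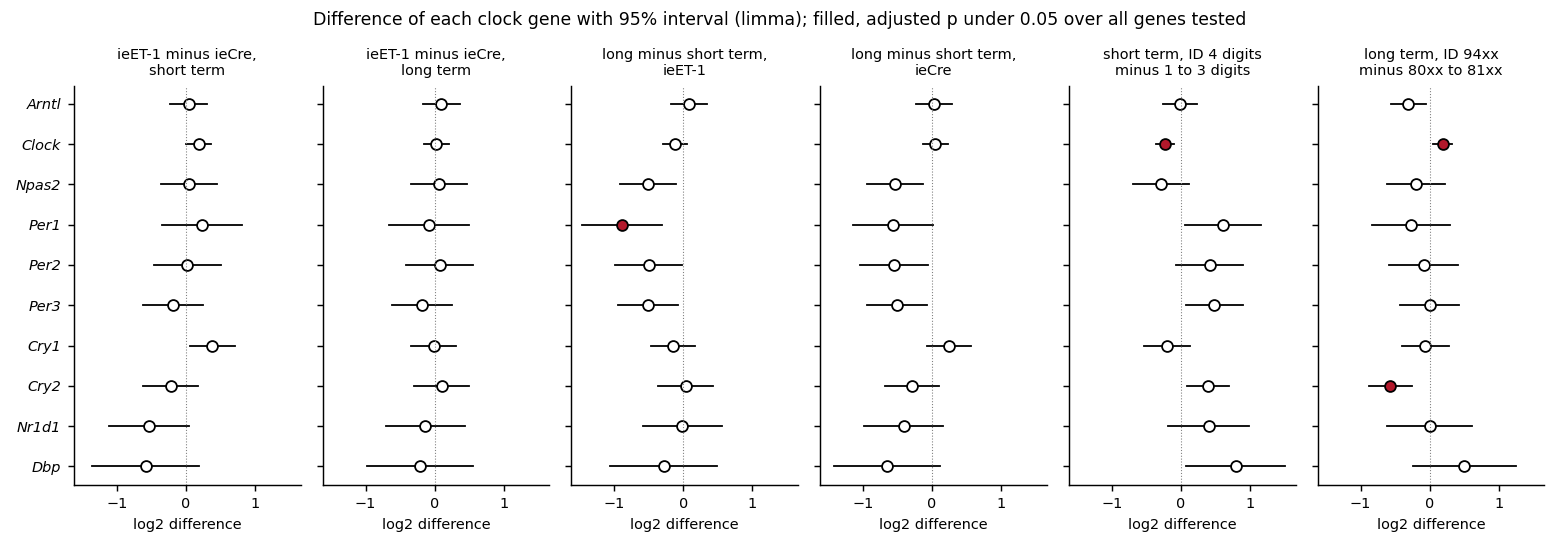
Log2 difference (x axis, on the log2(value + 1) scale) of each clock gene (rows) in 6 comparisons, with its 95% interval from limma; filled points have an adjusted p under 0.05 over 14544 genes. No genotype comparison has a filled point; Per1 passes between long-term and short-term ieET-1 mice, Clock between the ID ranges at both times, and Cry2 between the ID ranges at the long term.

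The animal IDs fall into 4 ranges, and both genotypes occur in each: 1 to 3 digits and 4 digits at the short term, and 80xx to 81xx and 94xx at the long term. The labels do not say what an ID range stands for. In the ranges of 1 to 3 digits and 80xx to 81xx, every ieCre ID is below every ieET-1 ID. Among 4 digits and 94xx, the ieET-1 IDs lie between ieCre IDs. Cry2, the other cryptochrome repressor, was lower in 94xx than in 80xx to 81xx mice. In ieET-1 long-term mice it had 15.7 and 17.5 in the 94xx range, against 18.6, 18.6, 20.9 and 30.7 in the 80xx to 81xx range. In ieCre long-term mice it had 15.8, 13.7, 14.1 and 17.8 in the 94xx range, against 26.6 and 26.5 in the 80xx to 81xx range. Every 94xx mouse lay below every 80xx to 81xx mouse. The log2 difference was -0.57 (95% interval -0.88 to -0.25; limma, SE 0.15, adjusted p = 0.012), and it missed the threshold when mouse 8088 was left out (adjusted p = 0.0506).

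Clock changed between ID ranges at both times. At the long term its 94xx mice had means of 227 in ieET-1 and 201 in ieCre, against 188 and 187 in ieET-1 and ieCre mice of the 80xx to 81xx range, with a log2 difference of 0.19 (interval 0.05 to 0.32; limma, SE 0.07, adjusted p = 0.0405). At the short term, mice with 4 digits had means of 199.6 in ieET-1 and 181 in ieCre, against 236 and 212 in ieET-1 and ieCre mice with 1 to 3 digits, and the log2 difference was -0.24 (interval -0.37 to -0.10; limma, SE 0.06, adjusted p = 0.0276). Within each genotype, every 94xx mouse lay above every 80xx to 81xx mouse at the long term, and every 4-digit mouse lay below every mouse of 1 to 3 digits at the short term. The share of all genes separated in that way was not counted. With the genotypes pooled, Clock overlapped at the long term (195.5 to 240.2 in 94xx, 178.6 to 211.6 in 80xx to 81xx mice). It also overlapped at the short term (170.3 to 212.5 in mice of 4 digits, 202.8 to 243.9 in mice of 1 to 3 digits). Clock has the smallest spread of the 10 genes, and these are small differences. The long-term call was lost without mouse 8135, 8136, 8152, 9489, 9490, 8088, 9486 or 9487 (adjusted p of 0.0502 to 0.149), and the short-term call without mouse 257, 8991 or 8 (0.0560 to 0.118). In limma fits of the compared groups alone both missed (adjusted p = 0.0995 and 0.0542), as they did without mice 9955 and 9489 (0.0846 and 0.0543), and the long-term call also missed without the 4 libraries rich in Gm42418 (0.141), without the filter (0.0532) and with the adrenal cortex score as a term (0.0666).

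These calls stand among many. Between the long-term ranges 23.1% of all genes passed, 11.5% as higher and 11.6% as lower in 94xx, against 2 of 10 clock genes, and between the short-term ranges 7.2% passed (3.49% as lower), against 1 of 10, Clock. With the genotypes pooled, groups did not overlap for 5.23% of all genes between the long-term ranges, Cry2 among them. Between the short-term ranges they did not overlap for 4.5%, with no clock gene among them. Arntl in 94xx relative to 80xx to 81xx mice had -0.31 on the log2 scale (interval -0.56 to -0.06; limma, adjusted p = 0.0683) and did not pass, except with library weights (0.0145), with the adrenal cortex score as a term (0.0357) and without mouse 9490 (0.0184). At the short term Dbp had 0.79 (interval 0.07 to 1.51; limma, adjusted p = 0.162), Per1 0.61 (0.06 to 1.16; adjusted p = 0.158), Per3 0.48 (0.07 to 0.90; adjusted p = 0.139) and Cry2 0.39 (0.09 to 0.69; adjusted p = 0.102) in mice of 4 digits relative to 1 to 3 digits, none of them passing. With the adrenal cortex score as a term Per3 did pass (0.72, limma adjusted p = 0.0289), and with library weights Cry2 did (0.40, 0.0312). The immediate early and heat shock genes, which respond to handling and stress within minutes to hours, differed along the same ranges: 5 of 8 passed as lower in 94xx mice, among them Junb (-0.79), Nr4a1 (-1.13) and Fos (-1.23), and 2 of 8, Junb (0.59) and Nr4a1 (0.92), as higher in mice of 4 digits. Cell type markers differed along the ranges as well. Of 5 endothelial markers, 3 passed as lower in 94xx mice, Kdr (-0.52), Tie1 (-0.51) and Cdh5 (-0.44), while the other 2, Pecam1 and Tek, had estimates above 0. In mice of 4 digits 2 passed as higher, Kdr (0.44) and Tie1 (0.42), and all 5 estimates were above 0. In 94xx mice 2 of 5 adipocyte markers, 2 of the 3 adrenal medulla markers tested and 1 of 5 smooth muscle markers also passed as lower. Among adventitial fibroblast markers 1 of 5 passed as higher. These lists were mixed in direction except for adrenal medulla. Estimates above 0 were found for 2 of 5 adipocyte and 2 of 5 smooth muscle markers, and below 0 for 2 of 5 fibroblast markers. The summed endothelial markers overlapped, at 1605 to 2154 in 94xx and 1517 to 2367 in 80xx to 81xx mice, and at 1807 to 2412 in mice of 4 digits and 1128 to 1934 in mice of 1 to 3 digits. The part of all these genes in the clock gene differences was not tested.

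The third question was how the 10 genes stood to each other in each mouse. Dbp and Arntl moved in opposite directions from mouse to mouse. The 5 mice with the most Dbp were 9958 (32.3), 9955 (29.6), 9487 (27.7), 8987 (25.6) and 8991 (24.5), and their Arntl values were 55.9, 51.0, 38.3, 52.3 and 59.6. The 4 mice with the least Dbp were 257 (3.71), 8089 (5.49), 9490 (5.50) and 8088 (7.55), and their Arntl values were 65.5, 78.0, 71.7 and 75.3. The first set holds ieET-1 and ieCre short-term mice and 1 ieCre long-term mouse, and the second holds 1 ieET-1 short-term mouse and long-term mice of both genotypes. The log2 ratio of Dbp to Arntl, with 1 added to each value, ran from -3.82 to -1 (median -2.34) in ieET-1 short-term mice, from -2.46 to -0.77 (median -1.77) in ieCre short-term mice, from -3.48 to -1.73 (median -2.66) in ieET-1 long-term mice and from -3.61 to -0.45 (median -2.26) in ieCre long-term mice. All 4 groups overlapped in this ratio.

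**Figure D3:**
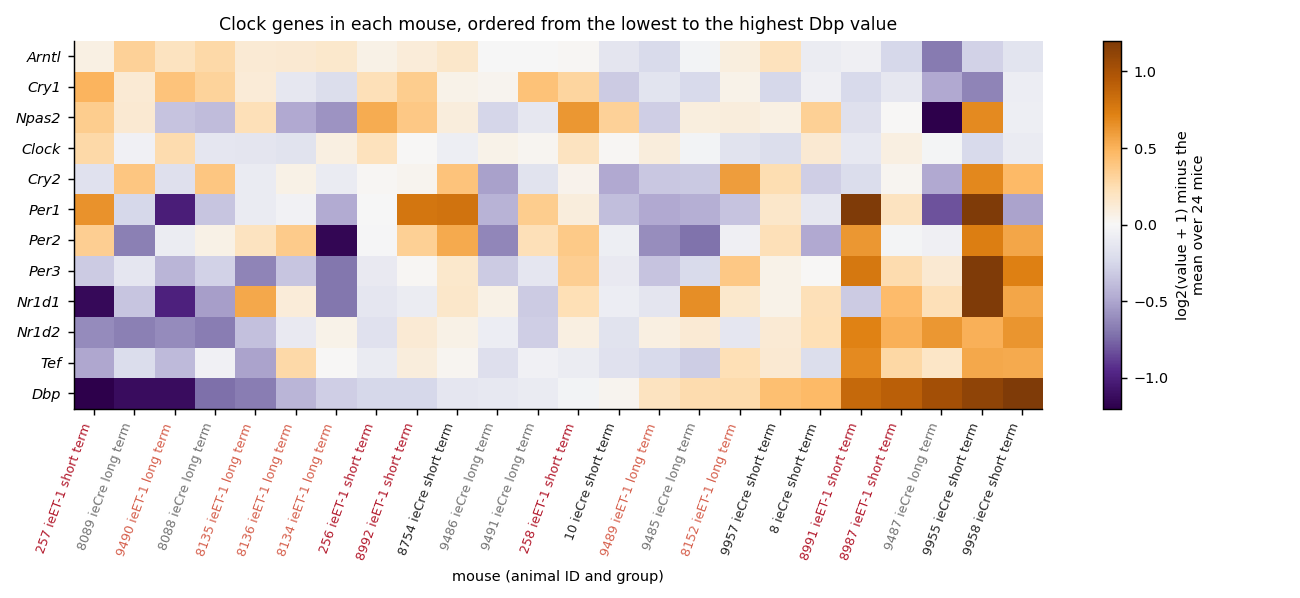
Log2(value + 1) of 12 clock loop genes (rows) in each mouse (columns, named by animal ID and group), as the difference from the gene's mean over 24 mice; columns run from the lowest Dbp (mouse 257, 3.71) to the highest (mouse 9958, 32.3). Nr1d2, Tef and Per3 tend to rise with Dbp toward the right, Arntl and Cry1 tend to fall, and Per1 and Per2 follow no such order.

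Correlations were computed over the 24 mice after each group's mean was removed, for all 45 pairs, with permutation tests within groups and Benjamini-Hochberg adjustment over the pairs. Of the 45 pairs, 7 passed by Pearson's r. Dbp took part in 4 of them. Dbp and Arntl had Pearson r = -0.72 (permutation adjusted p = 0.00225) and Spearman rho = -0.80 (0.00135). Dbp and Cry1 had r = -0.72 (0.00555) and rho = -0.66 (0.024), Dbp and Per3 r = 0.66 (0.00555) and rho = 0.65 (0.0232), and Dbp and Nr1d1 r = 0.65 (0.0161) and rho = 0.57 (0.0452). Arntl and Cry1 moved together, with r = 0.65 (0.0161) and rho = 0.59 (0.0452). Clock was opposed to Per1, with r = -0.56 (0.0371) and rho = -0.58 (0.0452), and to Cry2, with r = -0.53 (0.0371) and rho = -0.55 (0.0452). The unadjusted permutation p-values behind these 7 ran from 5e-05 to 0.00577 for Pearson's r. By Spearman's rho 10 pairs passed the same permutation test, these 7 among them. The added pairs were Arntl with Nr1d1 (rho = -0.53, adjusted p = 0.0495), Clock with Per2 (-0.53, 0.0452) and Per3 with Nr1d1 (0.54, 0.0452). Their Pearson r missed the threshold, with permutation adjusted p of 0.0844, 0.0783 and 0.0783.

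The 7 pairs were also computed with mice left out. Without the 2 mice farthest from the median of the first gene, Arntl and Dbp had r = -0.67 (without 9487 and 9489; permutation adjusted p = 0.00967), Cry1 and Dbp -0.65 (without 9487 and 9955; 0.026), Per3 and Dbp 0.67 (without 9955 and 8152; 0.0223) and Clock and Cry2 -0.64 (without 9490 and 8991; 0.00967). By the same permutation test, Nr1d1 and Dbp at 0.53 without 257 and 9955 (adjusted p = 0.0983), Arntl and Cry1 at 0.54 without 9487 and 9489 (0.0708), and Clock and Per1 at -0.45 without 9490 and 8991 (0.208) no longer passed, so that their calls depend on those mice. Over all 24 choices of 1 mouse left out, r stayed between -0.80 and -0.68 for Arntl and Dbp, between -0.78 and -0.66 for Cry1 and Dbp, and between 0.61 and 0.70 for Per3 and Dbp. The same ranges were 0.53 to 0.73 for Nr1d1 and Dbp, 0.53 to 0.69 for Arntl and Cry1, -0.63 to -0.50 for Clock and Per1, and -0.63 to -0.47 for Clock and Cry2, so none of the 7 pairs changed sign.

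When both the group and the ID range were removed, 2 of the 45 pairs passed, Arntl with Dbp (r = -0.73, permutation adjusted p = 0.0409) and Per3 with Dbp (0.68, 0.0409). Cry1 and Dbp then had -0.65 (0.0906), Arntl and Cry1 0.68 (0.208), Nr1d1 and Dbp 0.58 (0.219), Clock and Per1 -0.33 (0.33) and Clock and Cry2 -0.11 (0.839), so the opposition of Clock and Cry2 was small within ID ranges. Within the 12 long-term mice alone Arntl and Dbp had r = -0.87 (permutation adjusted p = 0.0157), and within the 12 short-term mice alone -0.61 (0.125). Per1 and Per2, also repressors, showed no relation to Dbp, with r of 0.00 and 0.05 and adjusted p of 0.986 and 0.896. Arntl and Clock, whose proteins act as a pair, had r = -0.05 (0.896).

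**Figure D4:**
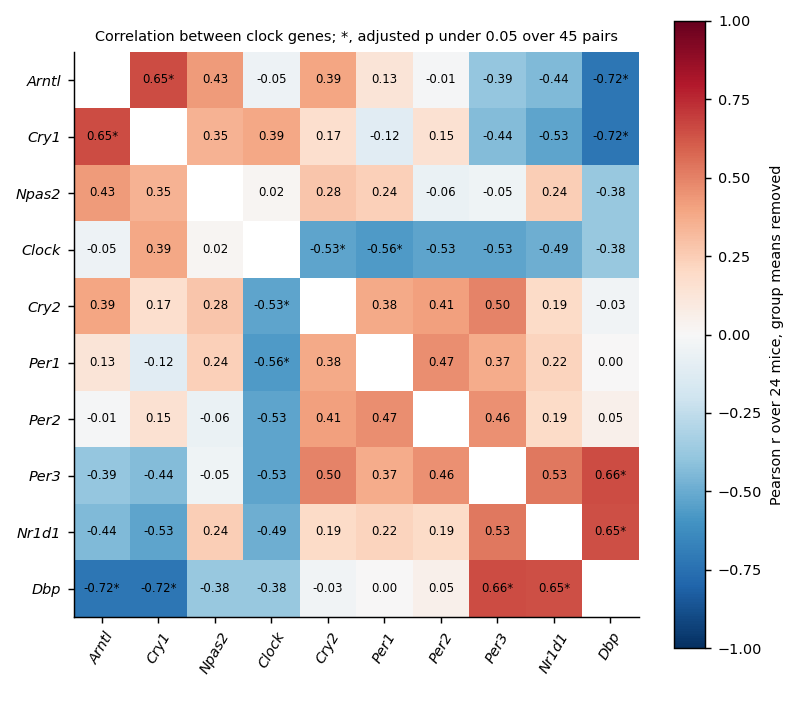
Pearson r between each pair of clock genes over 24 mice, group means removed, as colour and number; asterisks mark the 7 pairs with a permutation adjusted p under 0.05 over 45 pairs. Dbp stands opposite Arntl and Cry1 (both -0.72) and with Per3 (0.66) and Nr1d1 (0.65).

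Other genes of the loop, not among the 10, were read beside them. Nr1d2, the close relative of Nr1d1, followed Dbp more closely than any other of 14543 genes. It had r = 0.94 and rho = 0.92 over 24 mice, and r = 0.91 without the 2 mice farthest from the median of Dbp. The 5 mice highest in Dbp were also the 5 highest in Nr1d2, at 115.1 to 133.3, and the 4 mice lowest in Dbp were the 4 lowest in Nr1d2, at 50.3 to 52.3. Tef, which like Dbp encodes an activator of the PAR bZIP family, had rank 4, with r = 0.72 and rho = 0.66. Nr1d2 was opposed to Arntl, with r = -0.72. Nr1d2 and Tef stand among the genes most like Dbp in these same data, so their r is given as a description, without a test. Of the 11 other loop genes looked at, 9 passed the filter on low values. In the genotype comparisons 0 of these 9 passed at either time. Between short-term ID ranges Tef passed as higher in mice of 4 digits (log2 difference 0.54, adjusted p = 0.023) and Rora, a ROR activator of Arntl, as lower (-0.33, adjusted p = 0.0265, limma).

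**Figure D5:**
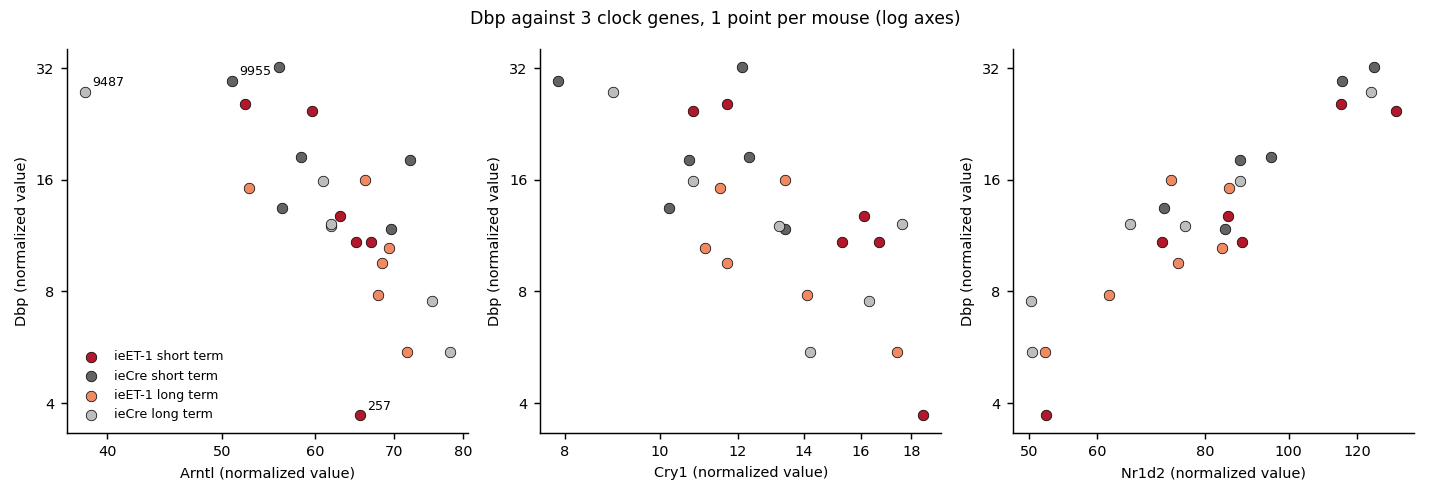
Normalized value of Dbp (y axis, log scale) against Arntl, Cry1 and Nr1d2 (x axes, log scale), 1 point per mouse, coloured by group. Dbp is high where Arntl and Cry1 are low and rises along with Nr1d2; mouse 9487 has the lowest Arntl (38.3), mouse 257 the lowest Dbp (3.71), and the 4 groups are mixed along each relation.

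Genes that act on clock proteins and genes known as clock outputs were read in the same way. Of 10 kinases and turnover genes, 0 passed between genotypes or between times, and between the long-term ID ranges 3 passed as lower and 2 as higher in 94xx mice, where 23.1% of all genes passed. The casein kinase genes Csnk1d (-0.57, limma adjusted p = 0.00282) and Csnk1e (-0.34, 0.0299), which phosphorylate PER proteins, and Btrc (-0.43, 0.000805), which marks PER for degradation, were the lower ones. At the short term Csnk1d (0.48, 0.0146) and Btrc (0.26, 0.0299) passed as higher in mice of 4 digits, beside 7.2% of all genes. Of 8 output genes, Por passed as higher in ieET-1 long-term than in ieET-1 short-term mice (0.71, 0.0232) and as lower in 94xx mice (-0.51, 0.0219). Of 6 glucocorticoid responsive genes, Errfi1 passed as lower in ieET-1 long-term than in ieET-1 short-term mice (-0.95, 0.02), the comparison in which Per1 passed, and Klf9 passed as lower in 94xx mice (-0.39, 0.0127) and as higher in mice of 4 digits (0.49, 0.00701). With 8.66% of all genes passing in the ieET-1 time comparison and 23.1% between the long-term ranges, a single call in a list of 6 or 8 is near the share of all genes. None of these lists had a member that passed between the genotypes.

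Neighbouring genes could touch 2 of the results. Dbp (ENSMUSG00000059824, chromosome 7 from 45705088 to 45710203 in GRCm38, plus strand) shares 539 exon bases, 18.01% of its exons, with Sphk2 on the other strand, and Nr1d1 (ENSMUSG00000020889, chromosome 11 from 98767932 to 98775333, minus strand) shares 263, or 8.55%, with Thra on the other strand. The library kit keeps strand, per the labels, but the strand setting of the counting is not stated in these sources, so reads in the shared bases may be split. Over the 24 mice Sphk2 did not rise with Dbp (r = -0.32 and rho = -0.38; permutation adjusted p = 0.169 and 0.123), and Thra had r = 0.30 and rho = 0.33 with Nr1d1 (0.193 and 0.174). With Arntl, Sphk2 had r = 0.38 and rho = 0.49 (permutation adjusted p = 0.113 and 0.0496), so that it passed by rho alone. Thra had r = -0.30 and rho = -0.36 with Dbp (0.193 and 0.15). Arntl also ran with a smooth muscle gene: Acta2, the actin of smooth muscle, which was chosen after its values were seen, had r = 0.76 and rho = 0.64 with it and r = -0.33 with Dbp, given as a description. Mouse 9487, lowest in Arntl, also had the least Acta2, at 2635 against a median of 4172 over the 24 mice. With the smooth muscle score, the mean log2(value + 1) of its 5 markers, as a term, Arntl and Dbp had r = -0.73 (permutation adjusted p = 0.00648), and Arntl and Cry1 0.55 (0.0462). By that test 5 of the 7 pairs still passed with the term. Clock with Per1 (-0.52, 0.0504) and Clock with Cry2 (-0.47, 0.0557) no longer did.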

How the data were processed

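Total RNA was sequenced from mesenteric arteries of 24 mice, 1 per library; per the labels' protocols, arteries were dissected from fat and veins and stranded ribosome-depleted libraries were made. The deposited table holds a signal per gene and library, normalized by the authors: reads over an effective library size. Within a tolerance of 0.001, 100% of 482036 positive values were whole multiples of the smallest value of their column, which gave back whole reads. Per the submitters' processing notes, STAR 2.3.1, edgeR 3.6.8, R 3.2.3, FastQC and bcl2fastq 1.8.4 were among the tools; what each did, the build, the annotation and the counter are not stated there. A single row named ID, which repeats the animal IDs on the scale of the table and holds no gene's reads, was left out. Counted as reads it would be at most 0.0993% of a library. Symbols and locations came from GENCODE M21 on GRCm38 (97.9% of 29020 identifiers matched), promoter sequences from RefSeq.

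The test was limma 3.58.1 (R 4.3.3) with a variance trend on log2(value + 1), 1 means model over the 4 groups and all 24 libraries, for 14544 genes; fold changes on this scale understate those of low genes. ID ranges were compared in a model with group means and 1 range term per time. P-values are two-sided and adjusted by Benjamini-Hochberg over all genes at 0.05. The design had assumed a normalized table, and the log scale test was kept; edgeR 4.0.16 and DESeq2 1.42.0 on the recovered reads were alternatives, beside other pseudocounts, filters, scalings, terms and libraries. Correlations used log2(value + 1) centred on group means and 100000 permutations within groups (numpy 2.4.6, scipy 1.17.1). Code was tested on simulated data.

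The members and all gene lists were chosen with earlier results of these data known. All 10 members are named throughout, from each list up to 4 genes of smallest p, and for Arntl and Dbp the 5 genes most and least like them; some genes under these rules are not reported here. Read floors cover counting error only, and the 95% intervals and p-values of limma rest on the spread between mice.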

Additional observations from a re-analysis of the deposited data

Results flagged for a closer look

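Within each group of 6 mice, the highest and lowest value of each clock gene was compared with its nearest neighbour. A single mouse stood apart in 5 of the 40 sets of 1 gene in 1 group, where the gap took up 0.635 to 0.757 of the group's whole range. Chance flags about 1 in 20 such sets. Mouse 9489 had an Arntl value of 52.7, the lowest of the ieET-1 long-term mice; it is also the library with reads on the most genes. Mouse 8152 had a Per3 value of 24.3 and a Cry2 value of 30.7, the highest of the ieET-1 long-term mice for both. Mouse 9487 had a Per3 value of 20.4, the highest of the ieCre long-term mice, and the lowest Arntl of all 24. Mouse 9955 had an Nr1d1 value of 57.1, the highest of the ieCre short-term mice; it is also the library with the most Gm42418 reads. The part of these library properties in the values was not tested.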

How the results depend on the processing

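No clock gene passed between the genotypes, or in the genotype by time test, under any alternative or with any 1 mouse left out (0 to 0). Between long-term and short-term ieET-1 mice, 1 clock gene passed, and 0 did without a filter, with the adrenal cortex score or with the adipocyte score as a term (0 to 2 with 1 mouse left out). In ieCre mice 0 passed, and 3 did with library weights (0 to 0 with 1 mouse left out). Between long-term ID ranges 2 passed, and 1 did without a filter, with the compared groups alone, with the 4 Gm42418-rich libraries dropped and with mice 9955 and 9489 dropped, while 3 did with library weights (0 to 2 with 1 mouse left out). Between short-term ID ranges 1 passed; 2 did with library weights or the adrenal cortex score, and 0 with the compared groups alone or without mice 9955 and 9489 (0 to 1 with 1 mouse left out). The cause of these changes was not tested, and the share of all genes passing under each alternative is not set beside these counts. Of the 45 correlations 7 passed by Pearson's r and 10 by Spearman's rho. By Pearson's r, 15 passed when group means were kept, 0 within short-term mice, 1 within long-term mice and 2 within ID ranges. With the smooth muscle score as a term 10 did, of which 5 were among the 7. Without mice 9955 and 9489 it was 4 and without the 4 Gm42418-rich libraries 5, all of them among the 7. Clock with Per1 and Clock with Cry2 missed in both settings. Without the 2 mice farthest from the median of the first gene it was 6, of which 4 were among the 7. Leaving out mice 9955 and 9489, and the smooth muscle term, were chosen after seeing the data.

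Over all genes the counts passing were 12 between genotypes at the short term (1 to 55 over the alternatives), 1 at the long term (1 to 2), 0 for the interaction (0 to 6), 480 for time in ieCre (0 to 2220), 1260 for time in ieET-1 (1 to 1898), 3361 between long-term ID ranges (1596 to 6155) and 1047 between short-term ranges (544 to 2423). No result that passed changed sign. No paired analysis was possible because each mouse has its own ID and none occurs in 2 groups. At 45 to 1151 reads per library for the 9 genes other than Clock, counting error weighs most on the lowest of them, Dbp in mouse 257.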

Other observations

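Genes outside the clock whose values across the 24 mice were most like those of Arntl or Dbp were picked out by the size of the correlation alone, with group means removed, so their r carries no test. Those most like Arntl among 14543 genes were Foxs1 (r = 0.80), Rasl11b (0.77), Hdac11 (0.77), Acta2 (0.76) and Abi2 (0.74). Those most opposed to Arntl, past 1 predicted gene, were Phf11a (-0.87), Slc15a3 (-0.82), Ptpn6 (-0.82), Tmem268 (-0.82) and Nek6 (-0.82). Ptpn6 encodes a phosphatase of blood cells. After Nr1d2, the genes most like Dbp included H2-D1 (0.74), a class I histocompatibility gene, Lpcat2 (0.73) and Tef (0.72). Those most opposed to Dbp were Rasl11b (-0.80), Gcat (-0.77), Hspb1 (-0.76), Actc1 (-0.74) and Hsd17b13 (-0.72), and 2 members of the clock, Cry1 and Arntl, stood at ranks 5 and 6 from the lowest. Rasl11b thus appears at the high end for Arntl and at the low end for Dbp. Among all genes Dbp itself had rank 106 from the lowest with Arntl, and Cry1 rank 68 from the highest.

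Ciart, a repressor of the loop known to be strongly rhythmic in other tissues, lay below the filter on low values, at values of 0.0763 to 1.36 over the 24 mice, where 3 reads correspond to 0.177 to 0.461. Its 3 highest values, 1.36, 1.14 and 1.08, were those of mice 8991, 9958 and 8987, which are among the 5 mice highest in Dbp.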
